A study of Saccharomyces cerevisiae with 4 samples.

Results

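The genes described here make or use acetate in budding yeast, and were chosen by systematic name: the acetyl-CoA synthetase genes ACS1 and ACS2, the aldehyde dehydrogenase genes ALD2, ALD3, ALD4, ALD5 and ALD6, and ACH1. Of these 8 genes, 7 were measured, out of 5799 genes in all; ACS1 (YAL054C) was not analysed here. Each of the 7 had a value on all 4 arrays, so no member was lost to the minimum of 3 values per gene. Expression was compared between untreated cells and cells given 30 mM acetic acid for 2 h, both of BY4741, a MATa laboratory strain in which HIS3, LEU2, MET15 and URA3 are deleted and LYS2 is intact; the number given to the ura3 deletion differs between the labels of the 4 arrays. Before treatment, cultures of both groups were grown at 28 °C in YPD, a rich medium, until the absorbance was 0.6. Each two-colour array carried both RNAs; the dye of the acid-treated RNA was Cy5 on 2 arrays and Cy3 on 2. All values are log2 ratios of treated over untreated cells, with base 2 assumed. The arrays give changes and not levels, so no gene's abundance is set against another's.

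Yeast growing on glucose turns pyruvate into acetaldehyde, most of which becomes ethanol. Aldehyde dehydrogenases oxidise the rest to acetate, in the cytosol through Ald6 and in mitochondria through Ald4 and Ald5. Acetyl-CoA synthetases then join acetate to coenzyme A, and this is also how acetate taken up from the medium enters metabolism. Ach1 is a mitochondrial enzyme that moves coenzyme A between succinyl-CoA and acetate. ALD2 and ALD3 encode closely related cytosolic enzymes known from stress and from beta-alanine synthesis. In the reference annotation (assembly R64) they are direct neighbours, with 0 genes between them, and their coding lengths are both 1521 bases.

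The array with acid in Cy3, replicate 1, stood apart from the others. Its ratios had an SD of 1.05 over genes, against 0.70 to 0.81 on the other arrays, and 5.94% of its genes lay below a log2 ratio of -2, against 0.0363% to 0.351%. Its Pearson correlations with the other arrays across genes, which are not independent replicates, were 0.41 to 0.62, against 0.67 to 0.80 among the rest. Results of the acetate genes that rest on it are given with and without it, but means of single related genes with all arrays only. The direction of the ratios is likely rather than stated: 5 of 5 known targets of the weak-acid regulator Haa1 with at least 3 values lay above 0, with a median of 4.48. If the authors took the ratio the other way, all signs given here are inverted. The arrays are described as biological replicates; whether arrays with the same replicate number share RNA is not stated.

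Of the acetate genes, only ACH1 rose past the threshold, to about 1.98-fold, and none of the 5 aldehyde dehydrogenase genes, nor ACS2, passed in either direction. Called in the fit over all genes were thus 1 of 7 members, or 14.3%, against 10.9% of the 5291 genes tested. The count of members is close to this background. Of all genes tested, 8.85% were called higher and 2.02% lower; of the 575 called, 468 were higher, against 541 of 809 after quantile normalization. The members' median log2 ratio was 0.21, against -0.04 over all genes tested, with 4 members above 0 and 3 below. An unadjusted p under 0.05 was reached by 3 members (ACH1, ALD3 and ALD4) of 7, against 29.8% of genes tested. These same 3 genes lay above 0 on all 4 arrays, as did 22.9% of the 4896 genes with 4 values.

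ACH1 (YBL015W) had log2 ratios of 0.353 (replicate 1) and 1.487 (replicate 2) with acid in Cy5, and of 0.813 and 1.301, in the same order, with acid in Cy3. All arrays were above 0, with acid in Cy5 replicate 1 the lowest, and the arrays of the 2 orientations overlapped. The mean was 0.99 ± 0.51 (SD, n = 4, as for all means below), with a 95% interval of 0.46 to 1.52, and the limma fit gave an adjusted p of 0.0383. The mean lay at percentile 94.3 of all genes tested. The call lay near the threshold: the adjusted p was 0.13 without acid in Cy5 replicate 2 and 0.164 without acid in Cy3 replicate 2. Over 15 alternatives it ranged from 0.0211 to 0.167 in tests against 0. Against a minimum fold of 1.5 (limma's treat), which is a different question, it was 0.745. If same-numbered arrays shared their RNA, so that n were 2, the adjusted p would be 0.0798.

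ACS2 (YLR153C), the synthetase gene that yeast needs on glucose, had ratios of -0.154 and 0.135 with acid in Cy5 and of 0.349 and 0.524 with acid in Cy3. Its mean was 0.21 ± 0.29 and its adjusted p 0.407. The 95% interval, -0.18 to 0.61, corresponds to 0.881-fold to 1.53-fold, so a doubling lay outside it. The 2 orientations did not overlap for ACS2, with both arrays of acid in Cy3 above both of acid in Cy5. Such a split was found in 40% of genes with 4 values, and the difference between orientations did not pass in a fit with a dye term (adjusted p = 0.701).

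**Figure D1:**
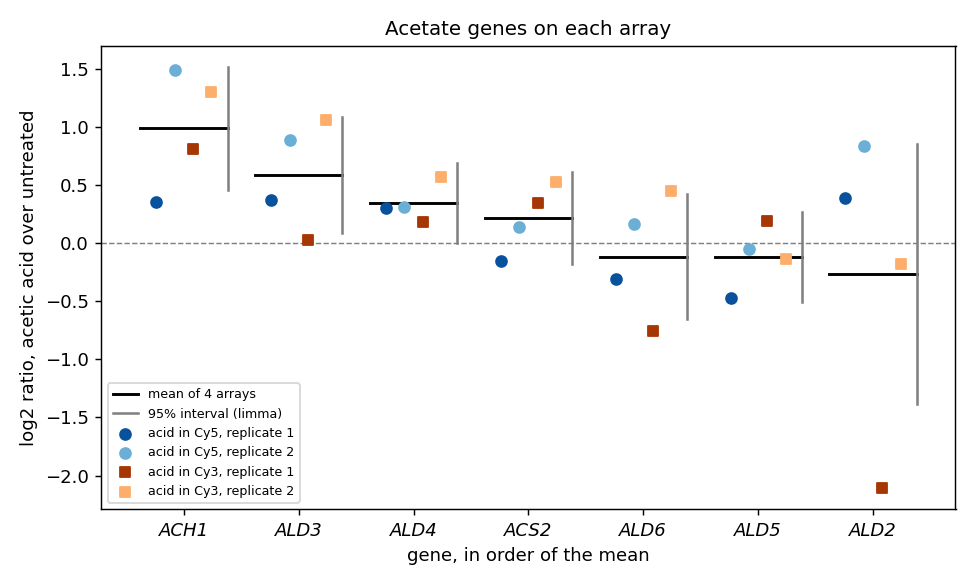
Log2 ratio of acetic acid over untreated (vertical axis) for the 7 measured acetate genes in order of their mean; circles are arrays with acid in Cy5, squares arrays with acid in Cy3, black lines means of 4 arrays and grey bars 95% intervals from limma. ACH1 has the highest mean (0.99), and ALD2 spans the widest range, from -2.109 to 0.836.

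Among the cytosolic aldehyde dehydrogenase genes, ALD3 (YMR169C) had the highest mean. Its ratios were 0.372 and 0.885 with acid in Cy5 and 0.028 and 1.057 with acid in Cy3, all above 0 and overlapping between orientations. The mean of 0.59 ± 0.47 (95% interval 0.08 to 1.09) had an adjusted p of 0.126, short of the threshold. When acid in Cy3 replicate 1, where ALD3 was near 0, was left out, the mean was 0.77 and the adjusted p 0.0362, so that 2 members, ACH1 and ALD3, were then called.

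ALD2 (YMR170C), its neighbour, had ratios of 0.386 and 0.836 with acid in Cy5, but of -2.109 and -0.181 with acid in Cy3. Both arrays of one orientation were thus above 0 and both of the other below, a pattern shared by 8.21% of genes with 4 values. Its SD of 1.30 was the widest of the members, at percentile 98.0 of genes tested. The mean, -0.27 ± 1.30, had an adjusted p of 0.720 and a 95% interval of -1.39 to 0.85, or 0.382-fold to 1.81-fold. It held a 2-fold fall. Because limma draws this interval partly from the spread of other genes, and the SD of ALD2 was wider than most, it does not exclude a 2-fold rise. Without acid in Cy3 replicate 1 the mean turned to 0.35, with an adjusted p of 0.291. The difference between orientations was 1.76 (95% interval 0.33 to 3.18), with an unadjusted p of 0.0221 and, in limma with a dye term, an adjusted p of 0.648. In that fit 7.03% of all genes tested had an unadjusted p under 0.05, among the members ALD2 alone, and 0.227% passed after adjustment, none of the members among them.

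ALD6 (YPL061W), which encodes the main cytosolic enzyme and uses NADP, had ratios of -0.310 and 0.162 with acid in Cy5 and of -0.760 and 0.447 with acid in Cy3. Within each orientation replicate 1 was below 0 and replicate 2 above it. The mean was -0.12 ± 0.53, with an adjusted p of 0.751, and it turned to 0.10 without acid in Cy3 replicate 1. Its 95% interval, -0.66 to 0.43, corresponds to 0.634-fold to 1.34-fold.

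The mitochondrial aldehyde dehydrogenase genes, ALD4 and ALD5, had the smallest spread of the members. ALD4 (YOR374W), the major mitochondrial enzyme gene, had ratios of 0.306 and 0.313 with acid in Cy5 and of 0.183 and 0.572 with acid in Cy3. Its mean was 0.34 ± 0.16, above 0 on 4 of 4 arrays, and its SD lay at percentile 12.4 of genes tested. In the limma fit the change did not pass the threshold (adjusted p = 0.166, unadjusted p = 0.0492), with a 95% interval from 1.001-fold to 1.61-fold. ALD5 (YER073W), which encodes a minor mitochondrial enzyme, had ratios of -0.470 and -0.052 with acid in Cy5 and of 0.190 and -0.140 with acid in Cy3. Only acid in Cy3 replicate 1 was above 0. The mean was -0.12 ± 0.27, with an adjusted p of 0.642 and a 95% interval of -0.51 to 0.27.

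**Figure D2:**
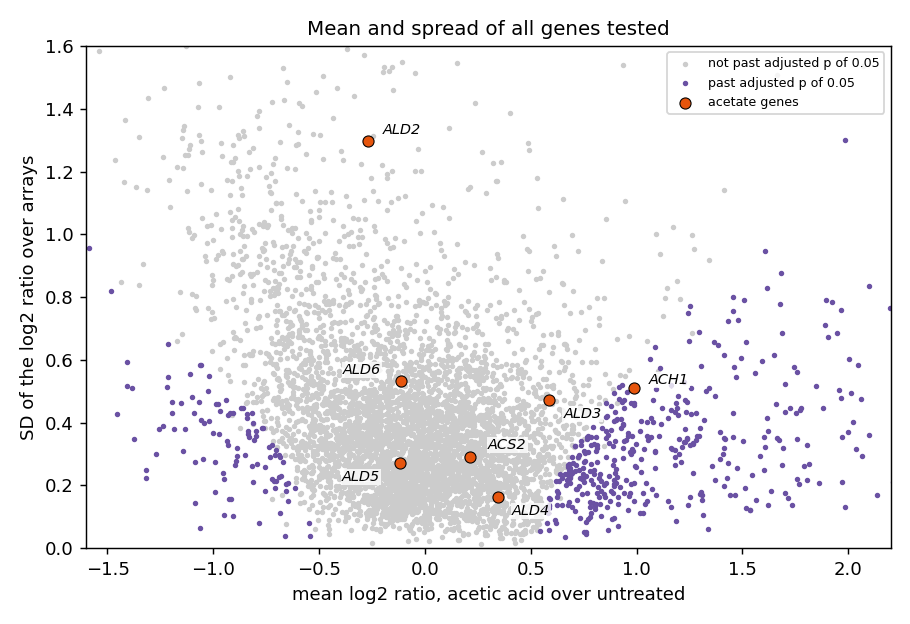
Mean log2 ratio (horizontal axis) against the SD of the log2 ratio over arrays (vertical axis) for 5149 of the genes tested, with 142 more outside the axes; purple points passed an adjusted p of 0.05 and orange points are the acetate genes. ACH1 sits at the edge of the purple points, ALD2 lies far above the other members with an SD of 1.30, and ALD4 lies near the bottom with 0.16.

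Because the arrays differed in width, each member was also ranked among all genes of the same array. ACH1 lay at percentiles 76.3 and 95.5 with acid in Cy5 and at percentiles 87.8 and 94.5 with acid in Cy3. ALD2 lay at percentiles 77.9 and 89.0 with acid in Cy5, close to ALD3 at percentiles 77.3 and 89.7. With acid in Cy3 it lay at percentiles 5.19 and 38.2, against percentiles 51.1 and 92.8 for ALD3. The neighbouring genes thus held nearly the same ranks with acid in Cy5 and different ones with acid in Cy3. ALD6 was at percentiles 22.1 and 22.0 on the arrays of replicate 1 and at percentiles 61.0 and 79.3 on those of replicate 2.

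In order of the mean, the genes ran ACH1, ALD3, ALD4, ACS2, ALD6, ALD5 and ALD2. The order was taken from these same arrays, so no mean difference between neighbours could fall below 0. A p for such a pair tests no comparison set beforehand. Only for ACH1 over ALD3 was the mean difference between neighbours in this order larger than its SD over arrays: 0.40 ± 0.36, positive on 3 of 4 arrays (exact two-sided sign-flip permutation test, p = 0.25). For the other 5 neighbouring pairs the difference was smaller than its SD, from 0.00275 for ALD6 over ALD5 to 0.33 for ACS2 over ALD6. With 4 arrays this exact test cannot go below p = 0.13, so it cannot pass 0.05 for any pair.

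Differences were then taken within arrays for 5 pairs. The ratio of ALD3 exceeded that of ALD6, the main cytosolic gene, by nearly the same amount on every array: 0.682 and 0.723 with acid in Cy5, and 0.788 and 0.610 with acid in Cy3. The mean difference was 0.70 ± 0.07, far larger than its spread, although each gene alone had an SD of 0.47 or more (exact p = 0.13, the smallest possible; adjusted over the 5 pairs, 0.25). The ratios of the 2 genes were high and low on the same arrays, and neither gene passed the test against 0 with all 4 arrays.

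ALD2 minus ALD3 was 0.014 and -0.049 on the arrays with acid in Cy5, and -2.137 and -1.238 on those with acid in Cy3. The 2 ratios were all but equal in one orientation and far apart in the other. The mean difference was -0.85 ± 1.03 (exact p = 0.25), and -0.42 without acid in Cy3 replicate 1. The dye thus moved with this difference, and its part in it was not tested. The genes are close relatives, so the spots may not tell their RNAs apart, and the ratio of either is uncertain.

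ALD4 exceeded ALD6 on 4 of 4 arrays, by 0.616 and 0.151 with acid in Cy5 and by 0.943 and 0.13 with acid in Cy3. The mean difference between these mitochondrial and cytosolic genes was 0.46 ± 0.39 (exact p = 0.13; adjusted 0.25), and 0.30 without acid in Cy3 replicate 1. The mitochondrial pair, ALD4 minus ALD5, differed by 0.46 ± 0.36 and was positive on 3 of 4 arrays, with -0.007 on acid in Cy3 replicate 1 and a mean of 0.62 without it. ALD6 minus ACS2, which follow each other in the cytosolic route, differed by -0.33 ± 0.53, with -1.109 on acid in Cy3 replicate 1 and -0.156 to 0.027 on the others; without that array the mean was -0.07. Both of these had an exact p of 0.25.

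**Figure D3:**
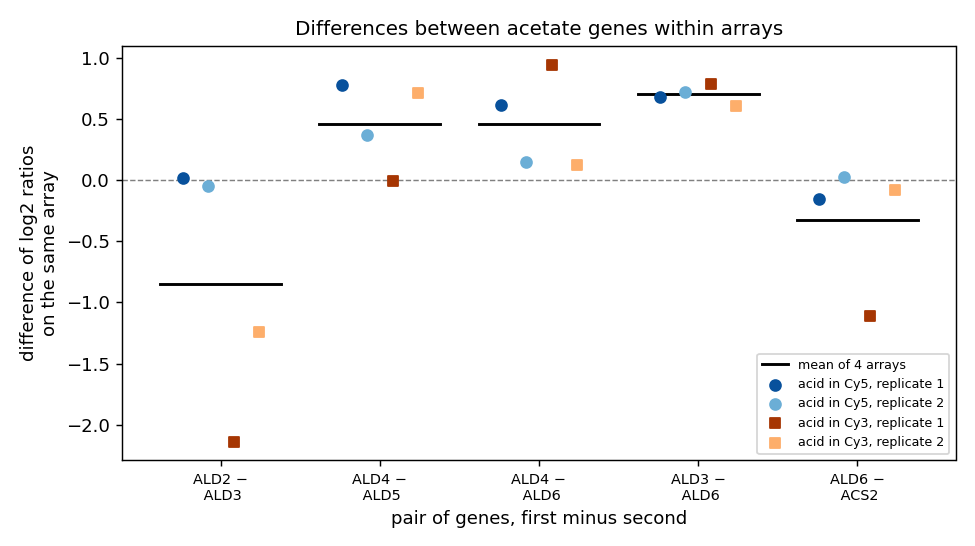
Difference of the log2 ratios of 2 acetate genes on the same array (vertical axis) for 5 pairs; circles are arrays with acid in Cy5, squares arrays with acid in Cy3 and black lines means of 4 arrays. ALD3 minus ALD6 stays between 0.610 and 0.788, while ALD2 minus ALD3 is near 0 on both arrays with acid in Cy5 and at -1.238 and -2.137 on those with acid in Cy3.

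Larger changes were found in some genes around acetate metabolism. The lists of these genes were chosen with earlier results of these data known, so the share called may reflect that choice. Of 45 tested genes in 9 related lists, 13 rose (28.9%, against 8.85% of all genes tested) and none fell with all 4 arrays and no further term, with a median of 0.11 over these genes. Under 6 of the 15 alternatives at least 1 of them was called lower, as given below. Without acid in Cy5 replicate 2 only 5 of the 45 were called, and without acid in Cy3 replicate 2 only 4. Calls over all genes fell too, from 575 with all arrays to 251 and 197 in the same order. All 3 pyruvate decarboxylase genes, which make the acetaldehyde that the Ald enzymes oxidise, rose: PDC6 by 1.65 ± 0.61, PDC5 by 0.98 ± 0.31 and PDC1 by 0.86 ± 0.21. Of 7 tested alcohol dehydrogenase genes 3 rose: ADH5 by 1.42 ± 0.35, ADH2, which oxidises ethanol back to acetaldehyde, by 0.97 ± 0.31, and SFA1, of formaldehyde and long-chain alcohol metabolism, by 0.75 ± 0.05. The near-identical sequences of some PDC and ADH genes leave the ratios of single members uncertain.

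Other members of the aldehyde dehydrogenase superfamily, known for other substrates, rose in 3 of 3 tested cases, against 8.85% of all genes tested. UGA2, the succinate semialdehyde dehydrogenase of GABA use, rose by 4.40 ± 0.38, HFD1, a fatty aldehyde dehydrogenase, by 1.22 ± 0.53 and PUT2, of proline use, by 0.65 ± 0.22. The ALD genes' own values ranged from -0.27 to 0.59. Of these 5 genes 0 were called, a count close to the 10.9% called over all genes tested. ALD3, at 0.59 and not called, lay close to PUT2, at 0.65 and called. Without acid in Cy3 replicate 2 only 1 of the 3 superfamily genes was called, 1 alcohol dehydrogenase gene and 0 of 3 pyruvate decarboxylase genes. Without acid in Cy5 replicate 2, 1 gene of each of these lists was called. Calls over all genes also fell under both settings, as given above.

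Downstream of acetyl-CoA, 3 of 10 tested genes for enzymes that use it rose: the citrate synthase genes CIT2 (4.34 ± 0.53) and CIT1 (1.82 ± 0.27), and the homocitrate synthase gene LYS21 (1.16 ± 0.52). This is 30.0%, against 8.85% of all genes tested. Others lay below 0: the malate synthase gene MLS1 had -1.01 ± 0.75 (adjusted p = 0.0777) and the isopropylmalate synthase gene LEU9 -0.66 ± 0.30 (adjusted p = 0.0547), both below 0 on 4 of 4 arrays, and DAL7, a second malate synthase gene, had -0.85 ± 1.31, with -2.781 on acid in Cy3 replicate 1. LEU9 was called lower under 6 alternatives, among them the replicate block (adjusted p = 0.0396), and MLS1 under 4: the dye term, quantile normalization, scaling, and leaving out acid in Cy3 replicate 1. These genes are named after their values were seen. None of the 5 pyruvate dehydrogenase complex genes passed, those with the smallest p being LPD1 (0.25 ± 0.19) and LAT1 (0.24 ± 0.23). Nor did any of 3 mitochondrial pyruvate carrier genes, where MPC1 had -0.36 ± 0.27 and MPC2 -0.40 ± 0.47, or of 2 carnitine acetyl shuttle genes, where CAT2 had -0.27 ± 0.38 and CRC1 -0.09 ± 0.49. Among 5 acetate and monocarboxylate transport genes none passed; the acetate permease gene ADY2 had -0.72 ± 0.98, with -2.136 on acid in Cy3 replicate 1, and ATO2 had -0.26 ± 0.41. Of 7 tested genes of regulators 1 rose, MSN4, a general stress factor, by 0.78 ± 0.35, with an adjusted p of 0.0414; this is 14.3%, near the 8.85% of all genes tested. No regulator was called higher with same-numbered arrays averaged, without shared variance, against a minimum fold of 1.5, or when any array other than acid in Cy3 replicate 1 was left out. ADR1, an activator of glucose-repressed genes that had no value on acid in Cy3 replicate 2, was called lower with the dye term alone (adjusted p = 0.00706), where its ratios were 0.156 and 0.519 with acid in Cy5 and -3.403 on acid in Cy3 replicate 1.

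**Figure D4:**
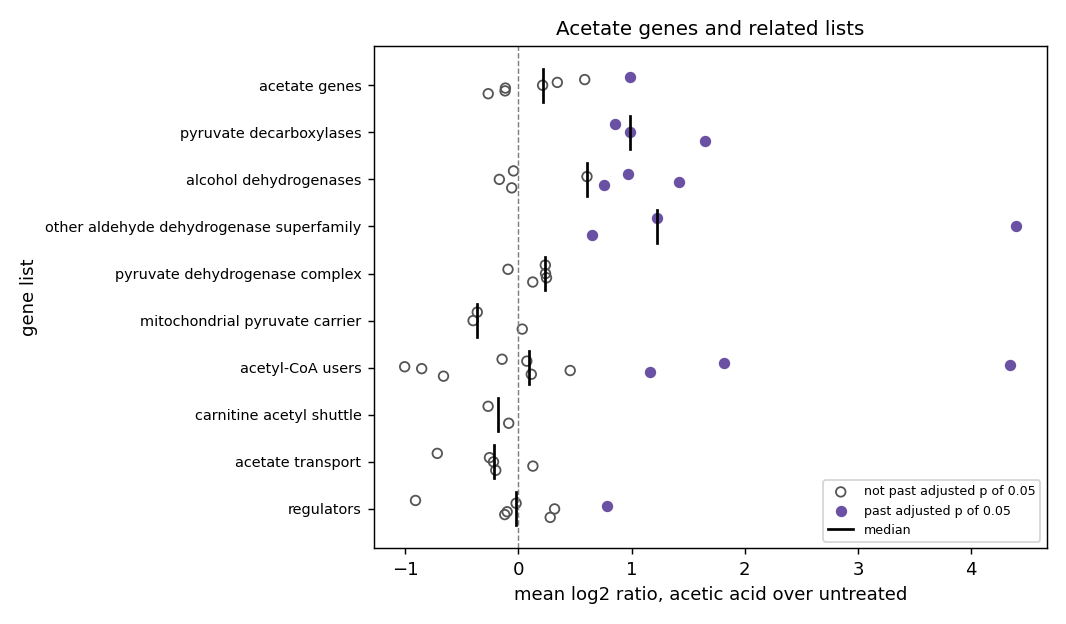
Mean log2 ratio of acetic acid over untreated (horizontal axis) for each tested gene of the acetate genes and of 9 related lists (vertical axis); filled points passed an adjusted p of 0.05, open points did not, and black lines are medians. The pyruvate decarboxylase and other aldehyde dehydrogenase lists lie wholly to the right of 0, with medians of 0.98 and 1.22, against 0.21 for the acetate genes.

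The genes most like each member were taken as those with the smallest root mean square difference of the 4 log2 ratios, among genes with 4 values. For ACH1 these were DIA4 (0.0719), the hexokinase gene HXK2 (0.130) and ATP2, a subunit gene of the mitochondrial ATP synthase (0.135). Each also passed the test. They were picked for ratios like those of ACH1 on the same arrays, so this adds no support to its call. For ALD3 the nearest genes were the kinase gene YAK1 (0.102), PLN1 (0.105) and SDH4, of succinate dehydrogenase (0.152). For ALD4 they were YDR341C (0.0919), the weak-acid regulator gene HAA1 (0.0928) and THI80 (0.0939). ACS2 was nearest to YKR070W (0.0688), RKM5 (0.0690) and the cyclin gene CLB2 (0.0938), and ALD5 to GAS2 (0.0506), the alcohol dehydrogenase gene ADH4 (0.0551) and PAU11 (0.0553). ALD6 was nearest to YIL082W (0.0665), SLK19 (0.133) and NIP100 (0.139). ALD2 had no close match. With an SD at percentile 98.0 of genes tested, it had few genes of like spread to be matched with. Its nearest genes were BSC6 (0.256), TCD2 (0.275) and YKL169C (0.279). All were low on acid in Cy3 replicate 1, at -2.461, -2.110 and -2.159. Genes this near to ALD2, which was at -2.109 there, had to be low on that array. No member was among the 3 nearest genes of another.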

How the data were processed

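Total RNA (acid-phenol extraction and indirect labelling, per the labels' protocols) was hybridised to 4 two-colour arrays. The values as deposited, 1 for each gene on each array, were read as log2 ratios because they are signed with medians near 0; the sources used here do not state base, direction, centring, scanner, background correction or normalization. Arrays of opposite orientation all correlated above 0 and were taken as already turned one way. Depth does not apply: the number of arrays limits precision, and signal over background is unknown. Of 5799 names, 5336 matched assembly R64, which gave symbols; no sequence or coordinate is printed.

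Genes with at least 3 values (5291) entered an intercept-only model in limma 3.58.1 (R 4.3.3; lmFit, eBayes). Tests were two-sided, p-values were adjusted by Benjamini-Hochberg over all of these genes, and 0.05 was the threshold. Further tests were a fit with a dye term and exact sign-flip tests of differences within arrays. The pairs with ACS1 could not be computed. Named were all members, up to 4 called genes per related list with the largest change (the 2 with the smallest p where none was called), and the 3 genes nearest to each member. Members and lists were chosen with earlier results of these data known. Alternatives were averaging of same-numbered arrays, a replicate block, a dye term, centring, scaling, quantile normalization, other minimums of values, robust or no shared variance, a minimum fold of 1.5, and leaving out each array. On data simulated for the acid comparison (5291 genes), the fit recovered 64% of 50 genes changed by 1 on the log2 scale and 90% of 50 changed by 2, with 10 false calls. The simulated arrays were independent, equal in spread and free of a dye effect. The real arrays were unequal in spread, so these shares may not hold for them.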

Additional observations from a re-analysis of the deposited data

Results flagged for a closer look

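ALD2 was above 0 on both arrays with acid in Cy5 and below 0 on both with acid in Cy3, a difference of 1.76 between the orientations' mean log2 ratios. In limma's fit with a dye term it did not pass (adjusted p = 0.648), with a difference of 0.79 and an adjusted p of 0.433 without acid in Cy3 replicate 1. Without acid in Cy3 replicate 2, which leaves the low array alone in its orientation, the difference was 2.72 and passed (adjusted p = 5.775e-06), as did 904 genes in all, against 12 with all arrays. No member had an array far enough from the other 3 to be singled out by the gap to its nearest neighbour (at most 0.666 of the range, in ALD4).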

How the results depend on the processing

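The number of genes called was 575 with all arrays, 377 with same-numbered arrays averaged, 204 without shared variance and 168 against a minimum fold of 1.5 (limma's treat), and ran from 197 to 825 when 1 array was left out. Under these settings in the same order 0, 0 and 0 members were called, and 0 to 2 with 1 array left out: 0 where replicate 2 of either orientation was left out and ACH1 lost its call, and 2 without acid in Cy3 replicate 1, where ALD3 gained one. The related genes called were 13 of 45 with all arrays, 8, 4 and 4 under the same settings, and 4 to 16 with 1 array left out. Without acid in Cy3 replicate 1 the mean log2 ratios of ALD2 (0.35) and ALD6 (0.10) changed sign, within ranges of -0.63 to 0.35 and -0.30 to 0.10 over the 4 fits that left out 1 array; neither was called with or without it. ACH1 kept its direction under all 15 alternatives and its call under 10. ACS2, ALD4 and ALD5 kept their direction and stayed uncalled under all 15. For ALD5 the mean was only -0.00067 without acid in Cy5 replicate 1. Direction could not change where the mean itself did not, as with averaging, a block, a dye term, other variances, a minimum fold or other minimums of values. Nor could leaving out 1 array turn ACH1 or ALD4, which were above 0 on all 4 arrays. Of the 5 differences between members, ALD3 minus ALD6 lay between 0.64 and 0.73 under every alternative run. ALD2 minus ALD3 ran from -1.14 to -0.42, and ALD6 minus ACS2 from -0.45 to -0.07. All 5 moved by less than their SD, but most alternatives could give no other outcome. Centring and averaging of same-numbered arrays cannot change these means, and leaving out 1 array cannot move a mean by its SD. Genes that followed the dye numbered 12, and 9 to 904 with 1 array left out, an alternative chosen after seeing the data; there the lone array of its orientation was assumed to vary like the other 2. The limma fit with the replicate number as a random block called 733 genes, with an adjusted p of 0.0301 for ACH1, and changed no call among the members. The correlation within blocks that it used was -0.11, and a value below 0 narrows the error of a mean. That fit is thus no guard against shared RNA. With same-numbered arrays averaged, limma gave ACH1 an adjusted p of 0.0798. Deviations of same-numbered arrays from their orientation means correlated at 0.252, which with only 2 pairs was not read as pairing. Without signal intensities, dim spots could not be told from bright ones.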
